A study of Mus musculus with 4 samples.

Results

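Antisense transcripts are RNAs made from the strand opposite an annotated gene. They were taken here as the rows that the deposited table classes as antisense and that averaged 1 FPKM or more across the 4 libraries. FPKM scales the fragments of a gene by its length and by the depth of the library. This left 182 of the 2767 antisense rows, or 6.58%, among 54149 listed genes, and 1229 antisense rows were at 0 in every library. The members were thus chosen by their FPKM, and their levels are a description. The sense partner of a member was the protein-coding gene that overlapped it most on the other strand, or another opposite-strand row where no protein-coding gene did. A partner was found for 167 members, it was protein-coding for 165, and 15 members had none.

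Antisense RNAs are usually spliced, polyadenylated and present at low levels, and many start close to the promoter of a coding gene or inside 1 of its introns. Some act on the gene opposite them in cis, of which Airn at the imprinted Igf2r gene is the classic mouse case, and for most no function is known. Utx, listed as Kdm6a, encodes an X-linked enzyme that removes methyl marks from histones and is tied to gene activation at enhancers and promoters.

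The knockout (KO) group was liver from adult female mice with a liver-specific Utx knockout, and the wild-type (WT) group was liver from control females matched for age and sex. Both groups were of a C57BL/6 x 129S4/SvJae background, were fasted for 16 h and then had an intraperitoneal injection of 300 mg/kg acetaminophen (APAP), which is toxic to hepatocytes in overdose. Each group had 2 libraries of poly(A)-selected RNA, and each library was a pool of RNA from 2 mice, so p-values reflect how far pools of 1 group lie apart. No group went without APAP, and the labels name neither the Cre driver nor the time of collection. Recovered reads numbered 17804730 and 16330451 in the KO libraries and 16580979 and 16669038 in the WT libraries, and members took 0.0824% and 0.0759% of them in KO against 0.0706% and 0.0704% in WT. Kdm6a was at 2.20 and 2.12 FPKM in KO livers and at 3.40 and 3.85 FPKM in WT livers (log2 fold change −0.63, SE 0.13, limma adjusted p = 0.0715). The table gives 1 value for the whole gene, and the floxed exons cannot be read apart from the rest.

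Hepatocyte markers had 0 of 9 tested genes past the threshold. Neutrophil markers had 4 of 10 lower in KO, beside 3.14% of all tested genes. Their summed level was 37.9 to 41.4 FPKM in KO and 123 to 188 FPKM in WT, with no listed marker at 0 in every library. Kupffer cell and macrophage markers had 1 of 12 lower. Sinusoidal endothelial markers had 0 of 8 past the threshold, and stellate and fibroblast markers 0 of 7. Cholangiocyte markers summed to 42.9 and 20.9 FPKM in KO and to 266 and 104 FPKM in WT, with 1 of 4 lower and none at 0. Mitochondrial ribosomal RNA took 0.108% and 0.158% of KO reads and 0.244% and 0.251% of WT reads. The part of these differences in the antisense results was not tested, and in bulk tissue fewer cells of a type and less RNA per cell cannot be told apart. Strand marking is not stated for these libraries, so reads of an antisense gene and of the gene opposite it cannot be told apart either.

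The promoter stretches of 5 called members are shown because their loci are described below: Airn and Gm16559, which rose in KO livers, and Map2k3os, Gm7008 and 2310043M15Rik, which fell. The sequences are RefSeq's on GRCm38.p6, read 5′ to 3′ on the strand of the antisense gene, from 250 bases before to 50 bases after its RefSeq start, and bases within exons of coding genes are left out. The RefSeq start lay 606 bases from the table's start for Gm7008, 9 bases for Gm16559 and 0 bases for the other genes. Capitals mark letters found on either strand: the TATA box as TATAAA, the box named for its letters CCAAT, the GC box as GGGCGG, the AP-1 site as TGANTCA and the E-box as CACGTG. No capital letter belongs to 2 motifs at once.
Airn, chr17:12741061-12741360, plus strand: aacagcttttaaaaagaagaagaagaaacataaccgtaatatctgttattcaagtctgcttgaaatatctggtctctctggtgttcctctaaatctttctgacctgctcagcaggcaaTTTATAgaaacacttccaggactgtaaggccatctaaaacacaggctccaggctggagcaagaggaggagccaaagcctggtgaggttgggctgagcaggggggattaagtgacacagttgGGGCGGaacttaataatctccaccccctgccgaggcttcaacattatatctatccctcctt
Gm16559, chr3:138306982-138307281, minus strand: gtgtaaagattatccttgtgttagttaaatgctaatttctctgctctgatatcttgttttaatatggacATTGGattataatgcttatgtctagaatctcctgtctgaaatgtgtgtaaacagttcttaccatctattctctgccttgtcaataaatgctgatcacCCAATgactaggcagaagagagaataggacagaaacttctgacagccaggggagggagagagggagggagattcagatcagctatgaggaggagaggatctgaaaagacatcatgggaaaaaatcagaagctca
Map2k3os, chr11:60931818-60932032, minus strand: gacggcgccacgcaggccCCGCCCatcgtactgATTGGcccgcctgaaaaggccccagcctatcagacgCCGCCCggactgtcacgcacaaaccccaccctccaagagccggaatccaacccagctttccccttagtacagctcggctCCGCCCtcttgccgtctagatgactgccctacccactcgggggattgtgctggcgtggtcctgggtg
Gm7008, chr12:40223190-40223413, plus strand: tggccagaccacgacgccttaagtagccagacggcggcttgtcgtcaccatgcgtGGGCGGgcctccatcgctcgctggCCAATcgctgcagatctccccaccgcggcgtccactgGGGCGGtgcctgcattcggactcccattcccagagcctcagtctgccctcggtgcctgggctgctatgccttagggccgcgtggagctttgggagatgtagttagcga
2310043M15Rik, chr16:93794852-93795151, minus strand: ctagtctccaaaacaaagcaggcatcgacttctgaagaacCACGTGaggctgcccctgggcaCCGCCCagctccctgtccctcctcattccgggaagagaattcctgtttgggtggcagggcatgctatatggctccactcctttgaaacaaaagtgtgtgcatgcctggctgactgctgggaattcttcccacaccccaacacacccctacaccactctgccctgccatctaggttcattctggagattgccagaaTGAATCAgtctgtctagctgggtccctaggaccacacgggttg

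The Airn stretch held TATAAA at base −132, read on the minus strand, and GGGCGG at base −11. Gm16559 held CCAAT on both strands and no CG dinucleotide, with 39.7% G and C. Map2k3os held GGGCGG in 3 places and CCAAT in 1, and Gm7008 held GGGCGG in 2 places and CCAAT in 1. Their G and C content was 65.1% and 65.2%, against a median of 52.7% over all promoters. The 2310043M15Rik stretch held CACGTG at base −210, GGGCGG at base −188 and TGANTCA as TGAATCA at base 8. Among 32851 RefSeq promoters of 300 bases, 13.6% held TATAAA, 37.4% CCAAT, 35.7% GGGCGG, 7.81% TGANTCA and 7.15% CACGTG. Stretches with coding exons left out are shorter than those promoters, and a match is a description of letters.

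Of the 182 members, 13 passed the threshold between KO and WT livers, a limma adjusted p under 0.05 over all 11900 tested genes. They were 7.14% of the members, beside a background of 4.74% over all tested genes. Those higher in KO numbered 9, or 4.95% against a background of 1.6%, and those lower numbered 4, or 2.20% against 3.14%. Of the 9 rises, 6 had a WT mean under 1 FPKM and became members only through their KO level. Gm15622, Gm17080, Airn and Gm16559 were among these 6. The fall of 4930478K11Rik likewise entered through its WT level, so these shares are descriptions. The rises described here are Gm15622, Gm17080, Airn, Gm16559, Gm11695, Gm15343 and Sox6os, and the falls were Map2k3os, 2310043M15Rik, Gm7008 and 4930478K11Rik. When FPKM were rescaled to the listed reads, 10 were higher and 1 lower. Without WT replicate 1, WT replicate 2 or KO replicate 1 no member passed, with 55, 58 and 44 at an unadjusted p under 0.05, and without KO replicate 2 there were 5, of which Gm7008 and 4930478K11Rik were among the 13. Among the 55 members with at least 50 reads per library on average, 6 passed, or 10.9%, beside a background of 4.84% over tested genes with as many reads. The median log2 fold change was −0.03 over the members and 0.01 over all tested genes. KO and WT values did not overlap for 114 members, or 62.6%, beside 61.5% of all tested genes. Those with both KO values higher numbered 58, beside 31.6% of all tested genes, and those with both lower numbered 56, beside 29.9%.

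**Figure D1:**
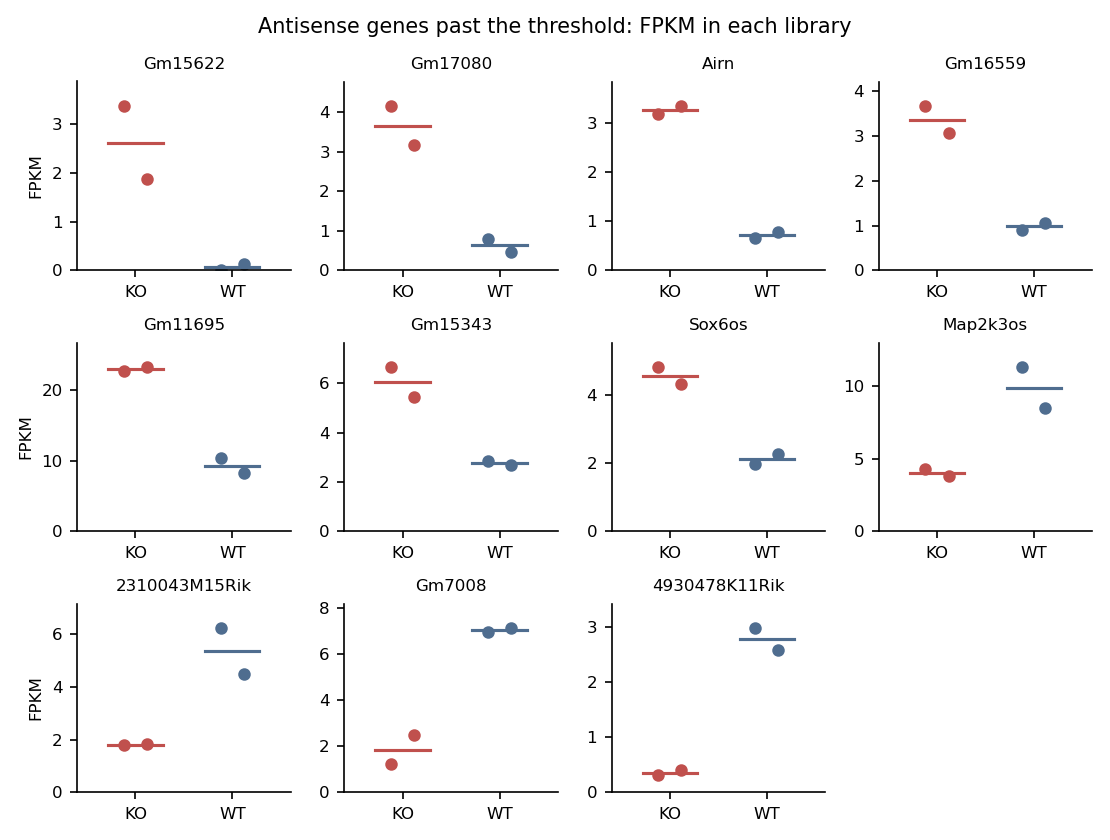
FPKM in each library (points) and the mean of each group (bars) for 11 of the 13 antisense genes with an adjusted p under 0.05, KO left and WT right, with an axis from 0 in every panel. KO points lie above both WT points for 7 of these genes and below them for 4, and Gm15622 is at 0 in WT replicate 1.

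Members were low and short. Their median was 1.87 FPKM and 30.4 reads per library, against 5.84 FPKM and 416.6 reads for all tested genes. In all, 98 were under 2 FPKM and 21 reached 5 FPKM. The median gene length was 794.5 bases against 3615 bases, with a median of 3 exons and 17 members of a single exon. Both group means reached 1 FPKM for 126 members. The WT mean was under 1 FPKM for 29 members, 6 of them among the 9 rises, and the KO mean was under 1 FPKM for 27, 1 of them among the 4 falls. Such a member entered through the group in which it was high. Summed over members, FPKM came to 612 and 566 in KO and 554 and 593 in WT.

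Just inside the limit stood Gm20324, which had 0.703 and 0.991 FPKM in KO against 0.846 and 1.48 FPKM in WT, Gm43714 with 0.839 and 1.16 FPKM in KO against 1.03 and 1.00 FPKM in WT, and 1810064F22Rik with 1.94 and 1.42 FPKM in KO against 0.301 and 0.416 FPKM in WT. Just outside it were Gm13563 with 0.769 and 0.939 FPKM in KO against 1.30 and 0.985 FPKM in WT, Gm12909 with 1.81 and 1.03 FPKM in KO against 0.0954 and 1.03 FPKM in WT, and 1110002L01Rik with 0.801 and 0.833 FPKM in KO against 1.10 and 1.20 FPKM in WT. A shift of under 0.02 FPKM in the mean would have moved any of the 6 across.

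**Figure D2:**
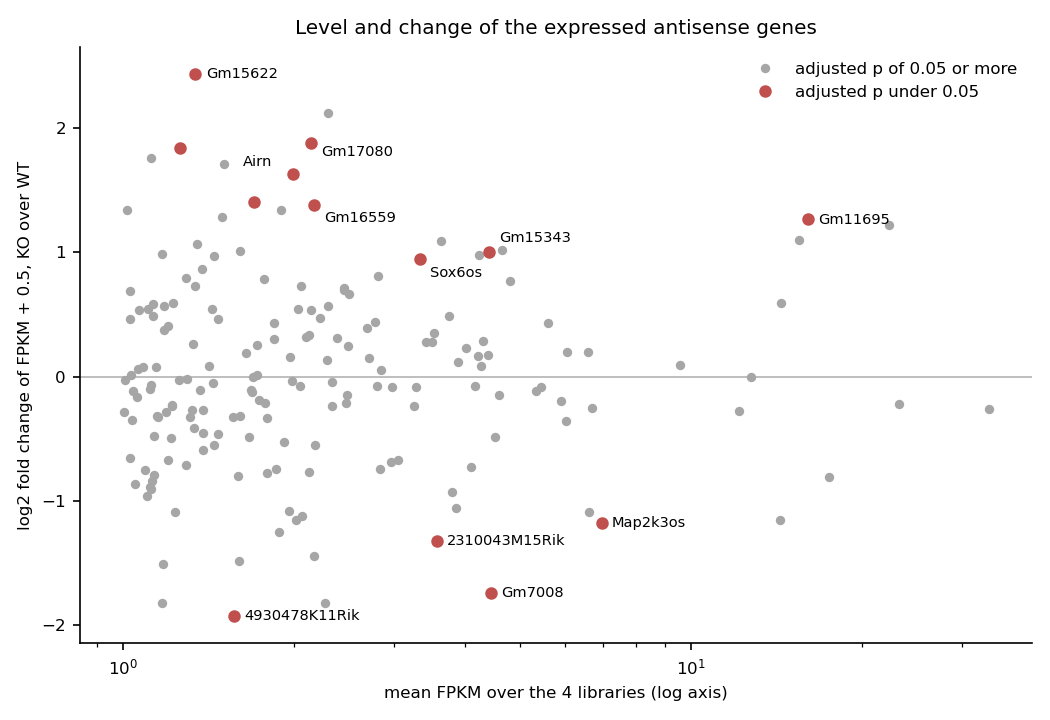
Mean FPKM over the 4 libraries (log axis) against the log2 fold change of FPKM + 0.5, KO over WT, for each of the 182 members. The 13 members with an adjusted p under 0.05 are marked and 11 of them named, 8 of the 9 rises lie under 5 FPKM, and Gm11695 is the rise at a higher level.

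Antisense genes at the liver transcription factor genes Hnf4a, Prox1 and Cebpa did not pass the threshold. Hnf4aos (chr2:163493807-163541720, minus strand) lies opposite Hnf4a, a nuclear receptor of hepatocyte identity, and shares no exonic base with it. It had 6.23 and 4.04 FPKM in KO livers and 1.67 and 2.60 FPKM in WT livers. The groups did not overlap, and the log2 fold change of 1.09 (SE 0.28) missed the threshold (limma adjusted p = 0.0973). Hnf4a was at 125 and 112 FPKM in KO and at 84.2 and 117 FPKM in WT, which overlap (log2 fold change 0.25, limma adjusted p = 0.445). Prox1os, opposite the homeobox gene Prox1, was at 7.93 and 5.21 FPKM in KO and at 5.50 and 5.61 FPKM in WT, with a log2 fold change of 0.20. Prox1 was at 16.6 and 13.1 FPKM in KO and at 7.33 and 9.82 FPKM in WT, and its log2 fold change of 0.76 missed the threshold (limma adjusted p = 0.0980). Gm45091, opposite Cebpa, was at 1.89 and 2.08 FPKM in KO and at 2.23 and 2.02 FPKM in WT. Of 25 liver transcription factor genes 5 passed the threshold as higher in KO and 0 as lower, beside 1.6% and 3.14% of all tested genes. Hnf4a, Prox1 and Cebpa were not among the 5, and some genes of the list had negative fold changes that missed the threshold.

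**Figure D3:**
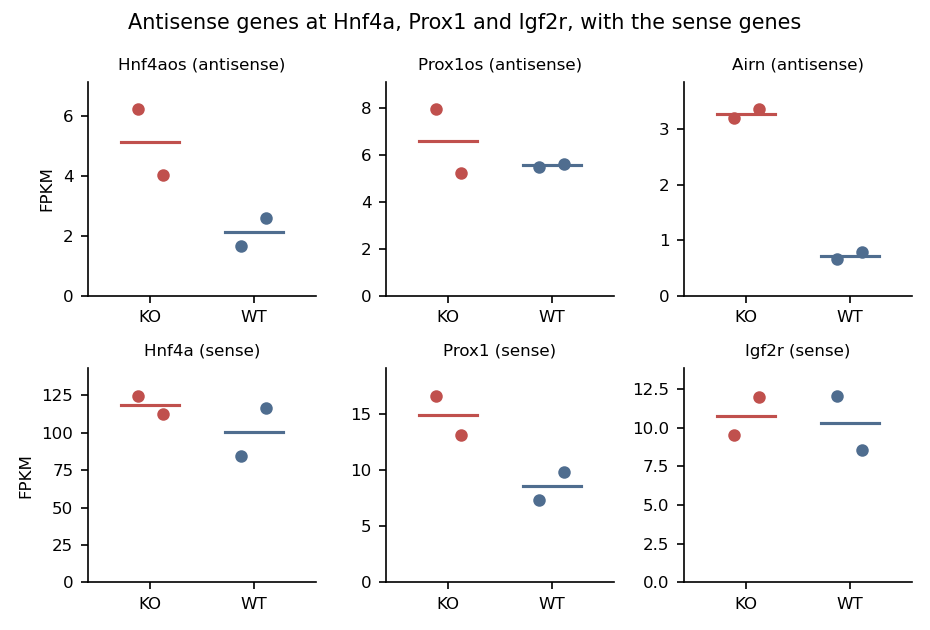
FPKM in each library (points) and group means (bars), KO left and WT right, for antisense genes in the upper row and the sense gene opposite in the lower row. Each panel has its own axis from 0, and the groups lie apart for Hnf4aos, Airn and Prox1 and overlap for Prox1os, Hnf4a and Igf2r.

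Airn rose in KO livers at the imprinted locus of Igf2r, the receptor that carries IGF2 to lysosomes. Airn (chr17:12741311-12860122, plus strand) starts in an intron of Igf2r, runs across its promoter and away from it, and shares no exonic base with it. It had 3.19 and 3.35 FPKM in KO livers, from 204 and 206 reads, against 0.660 and 0.781 FPKM in WT livers, from 40 and 44 reads. The replicates lay close together and the groups far apart (log2 fold change 1.63, SE 0.16, limma adjusted p = 0.0292). Igf2r was at 9.51 and 12.0 FPKM in KO and at 12.1 and 8.53 FPKM in WT, and the groups overlapped (log2 fold change 0.07, 95% interval −0.49 to 0.63). Airn stood at 33.6% and 28.1% of the level of Igf2r in KO, against 5.48% and 9.15% in WT. Reads in the mostly unspliced body of Airn outside its annotated exons do not enter these values. Kcnq1ot1, another imprinted antisense RNA, was under the limit at 0.0844 and 0.0645 FPKM in KO and 0.111 and 0.164 FPKM in WT. It still had a mean of 164.25 reads per library, since FPKM scales by length. Hotair, Nespas and Foxo6os were listed at 0.

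At genes of hepatic metabolism, Gm15622 and Gm16559 rose. Gm15622 (chr13:93625382-93628633, plus strand) lies within Bhmt, which encodes the enzyme that remethylates homocysteine with betaine. It had 3.37 and 1.87 FPKM in KO livers, from 88 and 47 reads, against 0 and 0.130 FPKM in WT livers, from 0 and 3 reads. Summed over libraries and set against the read totals, the KO level was 42.0 times the WT level, with an exact 95% counting interval of 14.1 to 206. The fitted log2 fold change was 2.43 (SE 0.34, limma adjusted p = 0.0422). Bhmt was at 383 and 405 FPKM in KO and at 361 and 524 FPKM in WT, which overlap (log2 fold change −0.14, limma adjusted p = 0.707). The call on Gm15622 was lost in 7 of 13 alternatives, among them a pseudocount of 0.1 and no filter on low values. Its log2 fold change ran from 1.74 to 5.59 over the alternatives.

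Gm16559 (chr3:138281408-138307022, minus strand) meets Adh1, the class I alcohol dehydrogenase gene, tail to tail. It was at 3.66 and 3.06 FPKM in KO livers against 0.908 and 1.06 FPKM in WT livers (log2 fold change 1.38, SE 0.17, limma adjusted p = 0.0350). Adh1 was at 411 and 428 FPKM in KO and at 190 and 240 FPKM in WT, and its log2 fold change of 0.97 missed the threshold (limma adjusted p = 0.0528). Both genes had KO values above all WT values.

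Bcat2 encodes the mitochondrial branched-chain aminotransferase, and the antisense gene 0610005C13Rik stood above it in level. The antisense gene had 38.3 and 24.8 FPKM in KO and 11.2 and 15.0 FPKM in WT (log2 fold change 1.22, SE 0.26, limma adjusted p = 0.0735). Bcat2 rose, with 10.7 and 7.64 FPKM in KO against 3.52 and 4.01 FPKM in WT (log2 fold change 1.17, SE 0.19, limma adjusted p = 0.0494). The antisense level was 358% and 324% of the sense level in KO and 319% and 373% in WT. Gm44706 lies within an intron of Pex11a, a gene of peroxisome division, and was at 22.0 and 20.5 FPKM in KO against 8.06 and 11.5 FPKM in WT (log2 fold change 1.10, limma adjusted p = 0.0529). Pex11a was at 111 and 109 FPKM in KO against 62.3 and 72.8 FPKM in WT (log2 fold change 0.71, limma adjusted p = 0.0567). At Adh7, a retinol-oxidizing dehydrogenase, 0610031O16Rik was at 20.5 and 22.6 FPKM in KO and at 25.0 and 25.2 FPKM in WT (log2 fold change −0.22, limma adjusted p = 0.269).

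Among genes of transporters and receptors, Gm11695 and Gm17080 rose. Gm11695 (chr11:115462045-115463454, minus strand) overlaps Slc16a5, of the monocarboxylate transporter family, head to head. It was the called member of highest level, at 22.6 and 23.2 FPKM in KO livers against 10.3 and 8.28 FPKM in WT livers (log2 fold change 1.26, SE 0.14, limma adjusted p = 0.0315). Slc16a5 was at 11.3 and 7.29 FPKM in KO and at 4.75 and 6.12 FPKM in WT (log2 fold change 0.70, limma adjusted p = 0.163). Gm17080 (chr17:45586120-45588377, plus strand) lies within Slc29a1, which encodes an equilibrative nucleoside transporter. It was at 4.15 and 3.16 FPKM in KO against 0.802 and 0.471 FPKM in WT, from 60 and 44 reads against 11 and 6 (log2 fold change 1.88, SE 0.24, limma adjusted p = 0.0362). Slc29a1 was at 24.3 and 32.9 FPKM in KO and at 20.5 and 19.5 FPKM in WT (log2 fold change 0.49, limma adjusted p = 0.165). Gm11789, opposite the glucagon receptor gene Gcgr, was at 19.6 and 15.3 FPKM in KO and at 10.9 and 11.8 FPKM in WT (log2 fold change 0.59, limma adjusted p = 0.101). Gcgr was at 93.1 and 85.8 FPKM in KO and at 57.0 and 66.6 FPKM in WT (log2 fold change 0.53, limma adjusted p = 0.0941).

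Of the rises described here, the other 2 faced genes under 1 FPKM, for which no test was made. Gm15343, opposite Spatc1l, was at 6.66 and 5.47 FPKM in KO against 2.86 and 2.68 FPKM in WT (log2 fold change 1.00, SE 0.14, limma adjusted p = 0.0422). Sox6os lies within an intron of Sox6, a transcription factor gene, and was at 4.81 and 4.31 FPKM in KO against 1.97 and 2.27 FPKM in WT (log2 fold change 0.95, limma adjusted p = 0.0426). Sox6 was at 0.791 and 0.794 FPKM in KO and at 0.877 and 0.635 FPKM in WT.

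The 4 falls lay at genes of stress signalling and of other roles, and at each of them the overlapping or adjacent coding gene had a negative fold change as well. Ifrd1 encodes a transcriptional co-regulator induced by stress, and Gm7008 starts 175 bases from an annotated Ifrd1 start, transcribed away from it. Gm7008 (chr12:40222758-40229184, plus strand) fell, with 1.21 and 2.49 FPKM in KO livers against 6.99 and 7.14 FPKM in WT livers (log2 fold change −1.74, SE 0.29, limma adjusted p = 0.0498). Ifrd1 fell as well, with 38.7 and 53.0 FPKM in KO against 217 and 354 FPKM in WT (log2 fold change −2.60, SE 0.30, limma adjusted p = 0.0315). Exons of Ifrd1 cover 21.1% of the exonic bases of Gm7008. The antisense to sense ratio had a log2 change of 0.86 (limma adjusted p = 0.187).

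Map2k3os (chr11:60920917-60931867, minus strand) overlaps no opposite-strand row and lies 165 bases from Map2k3, an upstream kinase of stress-activated MAP kinases, also transcribed away from it. It was at 4.30 and 3.80 FPKM in KO livers against 11.3 and 8.47 FPKM in WT livers (log2 fold change −1.18, SE 0.17, limma adjusted p = 0.0426). Map2k3 was at 49.3 and 58.5 FPKM in KO and at 91.2 and 90.2 FPKM in WT (log2 fold change −0.75, limma adjusted p = 0.0535). In the promoter stretches above, the Map2k3os and Gm7008 letters include the whole span between the paired starts.

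2310043M15Rik (chr16:93792136-93794901, minus strand) lies within Dopey2. It was at 1.78 and 1.85 FPKM in KO against 6.21 and 4.47 FPKM in WT (log2 fold change −1.32, SE 0.18, limma adjusted p = 0.0419). Dopey2 was at 4.92 and 6.31 FPKM in KO and at 14.7 and 11 FPKM in WT (log2 fold change −1.12, limma adjusted p = 0.0540). 4930478K11Rik (chr12:108313779-108328030, minus strand) lies within Hhipl1, a relative of the Hedgehog-interacting protein gene. It was at 0.314 and 0.408 FPKM in KO against 2.98 and 2.58 FPKM in WT, from 4 and 5 reads against 36 and 29 (log2 fold change −1.93, SE 0.20, limma adjusted p = 0.0307). Hhipl1 fell too, with 1.57 and 0.687 FPKM in KO against 5.59 and 4.92 FPKM in WT (log2 fold change −1.87, SE 0.30, limma adjusted p = 0.0481). The summed neutrophil and cholangiocyte markers given above were also lower in KO, and their part in these falls was not tested.

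Among the 6 largest falls with at least 50 reads, Gm15441, 4933431G14Rik and Gm12279 missed the threshold. Gm15441 surrounds Txnip, the thioredoxin-interacting protein gene, on the other strand and was at 0.837 and 0.452 FPKM in KO against 2.05 and 5.77 FPKM in WT (log2 fold change −1.82, SE 0.48, limma adjusted p = 0.103). Txnip was at 58.0 and 60.7 FPKM in KO and at 47.3 and 36.3 FPKM in WT (log2 fold change 0.51, limma adjusted p = 0.137), so the signs were opposite and their ratio had a log2 change of −2.34 (limma adjusted p = 0.141). 4933431G14Rik lies within an intron of St3gal5, a ganglioside synthase gene, and was at 0.638 and 1.29 FPKM in KO against 3.19 and 3.58 FPKM in WT (log2 fold change −1.44, limma adjusted p = 0.0577). St3gal5 was at 90.6 and 101 FPKM in KO and at 148 and 138 FPKM in WT (log2 fold change −0.58, limma adjusted p = 0.0738).

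In all, 22 members carry a name built from a sense gene, and 4 of them passed the threshold, beside the background of 4.74% over all tested genes. Sox6os was among 3 that rose, beside 1.6%, and Map2k3os was the 1 that fell, beside 3.14%. The rises other than Sox6os had a WT mean under 1 FPKM and became members only through their KO level. Of the sense genes behind the names, Rapgef4 and Ttc39a passed. Ttc39aos1 starts 468 bases from Ttc39a and had 5.69 and 2.52 FPKM in KO against 0.345 and 0.667 FPKM in WT (log2 fold change 2.12, SE 0.41, limma adjusted p = 0.0612). Ttc39a was at 1.85 and 1.76 FPKM in KO against 0.434 and 0.363 FPKM in WT (log2 fold change 1.36, limma adjusted p = 0.0475). Rapgef4os3 lies within an intron of Rapgef4, a cyclic AMP-activated exchange factor for Rap, and was at 1.85 and 2.83 FPKM in KO against 0.679 and 0.620 FPKM in WT (log2 fold change 1.28, limma adjusted p = 0.0603). Rapgef4 was at 19.0 and 17.3 FPKM in KO against 7.95 and 10.03 FPKM in WT (log2 fold change 0.98, limma adjusted p = 0.0448). Rab10os, at 350 and 289 reads in KO and 501 and 549 reads in WT, had 3.20 and 2.74 FPKM against 4.82 and 5.68 FPKM (log2 fold change −0.73, limma adjusted p = 0.0644), while Rab10, a vesicle traffic GTPase gene, had a log2 fold change of 0.10.

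Apart from these and from Hnf4aos, members with such names had adjusted p-values of at least 0.142. Phf2os1, which meets the histone demethylase gene Phf2 over 8 bases, was at 2.93 and 2.34 FPKM in KO and 1.78 and 1.53 FPKM in WT. Plet1os was at 0.766 and 1.27 FPKM in KO and 4.18 and 1.63 FPKM in WT, with Plet1 at 6.37 and 15.4 FPKM in KO and 29.9 and 17.8 FPKM in WT. Both had KO and WT values that did not overlap, with log2 fold changes of 0.54 and −1.08. Brip1os, Sox5os4, Tmem147os and Adap2os had log2 fold changes between 0.25 and 0.39. Rab26os, Ctcflos, Alkbh3os1 and Zfp335os lay between −0.59 and −0.33, and Zbtb11os1, Frmd8os and Chrna1os between −0.21 and −0.02. Rab26, Chrna1 and Ctcfl were under 0.5 FPKM in every library, so that their antisense rows stood above them. Among the most abundant members, Gm15247 was at 22.1 and 39.8 FPKM in KO and at 41.2 and 30.8 FPKM in WT, and Gm15726 at 14.0 and 10.7 FPKM in KO and at 18.1 and 8.25 FPKM in WT. Both lie within Mid1, a ubiquitin ligase gene, and their groups overlapped. Gm30177, in an intron of the neuritin gene Nrn1, was at 10.7 and 13.8 FPKM in KO and at 15.4 and 30.2 FPKM in WT. Gm12279 was at 4.96 and 13.7 FPKM in KO and at 16.1 and 22.7 FPKM in WT, and Gm17201 at 10.2 and 11.5 FPKM in KO and at 15.6 and 11.3 FPKM in WT. None of these 5 passed the threshold.

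The members have 162 different main partners, of which 139 were tested and 15 passed, or 10.8% beside the background of 4.74%. The partners that rose were Pbld1, Pbld2, Bcat2, Acsm1, Cyp2f2, Hsd17b2, Rapgef4, C1rl and Gsta3, and those that fell were Ifrd1, Hhipl1, Pvr, Rell1, Npc1 and Kctd15. Several of these were named after their values were seen. Acsm1, a medium-chain acyl-CoA synthetase gene, was at 109 and 101 FPKM in KO and 45.2 and 50.3 FPKM in WT (log2 fold change 1.13, limma adjusted p = 0.0315). Gm19950 within it was at 4.0 and 4.07 FPKM in KO and 3.87 and 4.72 FPKM in WT (log2 fold change −0.07, limma adjusted p = 0.760). Cyp2f2, a cytochrome gene of xenobiotic metabolism, was at 163 and 149 FPKM in KO and 68.5 and 80.5 FPKM in WT, and Gm15883 opposite it was at 4.12 and 2.28 FPKM in KO and 1.29 and 2.33 FPKM in WT. Pvr, a nectin-like adhesion receptor gene, had 8.93 and 9.69 FPKM in KO against 28.7 and 31.1 FPKM in WT (log2 fold change −1.63, limma adjusted p = 0.0258), and Gm16251 opposite it had 2 and 5 reads in KO and 3 and 15 reads in WT. The antisense gene had the sign of its partner in 14 of the 15 pairs with a called partner, and Gm19950 was the exception.

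In 144 pairs both genes were tested, and 2 pairs had both genes past the threshold, Gm7008 with Ifrd1 and 4930478K11Rik with Hhipl1. The signs of the fold changes were the same in 100 of 144 pairs, or 69.4%, with 50 pairs both higher and 50 both lower. Among all 1133 pairs of tested genes on opposite strands, members included, 636 or 56.1% had the same sign. Across the 144 pairs the log2 fold changes had a Spearman rho of 0.54 and a Pearson r of 0.55. The points share 4 libraries, and some share a partner, so these are descriptions. The levels had a Spearman rho of 0.056, and the median member stood at 17.4% of the level of its partner. In 15 of the 144 pairs the antisense level was above that of the partner. With untested partners included, 38 members stood above the partner. In the 23 pairs with a partner under 1 FPKM this followed from the rule, since every member averaged 1 FPKM or more.

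**Figure D4:**
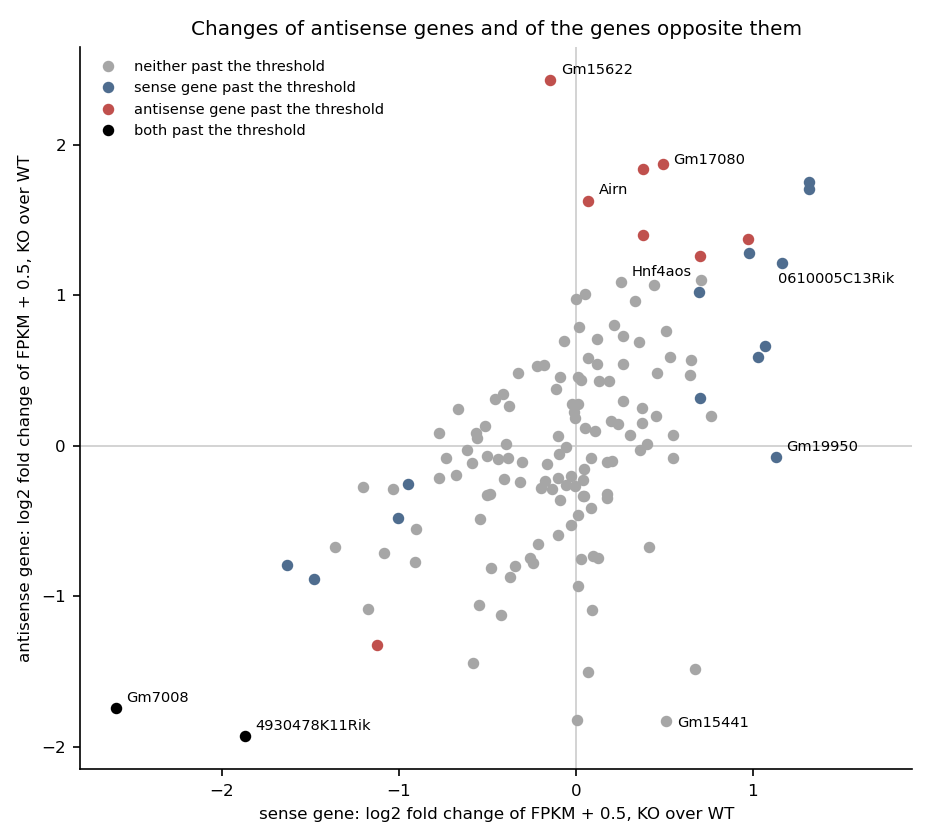
Log2 fold change of FPKM + 0.5, KO over WT, of the sense gene (horizontal) and of the antisense gene (vertical) for 144 pairs. Pairs in the lower left and upper right have the same sign, 100 in all, and Gm7008 and 4930478K11Rik are the pairs with both genes past the threshold.

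The ratio of antisense to sense level was tested over the 1133 pairs. None of the 144 member pairs passed in limma, with 39 at an unadjusted p under 0.05, and 2 of the 1133 did, a background of 0.177%. The smallest adjusted p among member pairs was 0.0823. With both genes at 50 reads or more, 3 of 44 member pairs passed: Gm19950 with Acsm1 (log2 change −1.20, limma adjusted p = 0.0397), Airn with Igf2r (1.56, limma adjusted p = 0.0429) and Brip1os with Ints2 (0.92, limma adjusted p = 0.0429). Gm19950 was named after its value was seen. Ints2, a subunit gene of the Integrator complex, was at 1.54 and 1.81 FPKM in KO and 3.32 and 2.63 FPKM in WT, and Brip1os was at 2.62 and 2.87 FPKM in KO and 2.33 and 2.14 FPKM in WT.

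In position, 78 members lay within the span of the partner, 48 overlapped it head to head, 33 tail to tail, and 8 enclosed it. Those past the threshold numbered 6, 4, 2 and 0 in these classes, beside a background of 4.74% over all tested genes. The 4 head-to-head and the 2 tail-to-tail members were all higher in KO, as were 3 of the 6 within the span of the partner. The background for higher in KO was 1.6%, and 6 of the 9 rises became members only through their KO level. Over all transcript starts in GENCODE M21, 91 members started within 1000 bases of a start of a coding gene on the other strand, at a median of 173 bases, and 52 of these had a gap between the starts. With a tested neighbour, 56 of 82, or 68.3%, had its sign, against 53 of 75, or 70.7%, of members that started farther away. Exonic bases lay mostly in introns of the partner for 89 members, mostly outside it for 58 and mostly in its exons for 9, and the sign was shared in 72.2%, 63.8% and 77.8% of tested pairs. These differences were not tested.

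Overlap with exons of a strongly expressed partner went with listing at 0. Of 26 antisense rows with at least 90% of their exonic bases in exons of a partner at 10 FPKM or more, 26 were at 0 in every library. Of 230 rows that lay partly in such exons 19 were at 0, or 8.26%, and of 112 rows clear of them 8 were, or 7.14%. The 182 members hold 0 rows of the first kind, 50 of the second and 29 of the third. What these rows would show with strand-specific reads was not tested.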

How the data were processed

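Per the file headers, the authors deposited 1 table of FPKM per gene and library, with biotype, strand, length and coordinates. The submitters' processing notes name HISAT2 2.0.5 and the mm10 (GRCm38.p6) build, and the counting program and annotation are not named there. FPKM times length fell on whole multiples of 1 step per library for 100% of values above 0, within 0.01 read, which gave the read numbers. Values were put on the log2(FPKM + 0.5) scale and tested in limma 3.58.1 under R 4.3.3 (eBayes with a trend on 2 residual and 2.59 prior degrees of freedom), on the 11900 genes that averaged 1 FPKM or more, two-sided, adjusted by Benjamini-Hochberg at 0.05. Such fold changes understate those of low genes. Antisense to sense ratios were tested likewise over 1133 pairs. Exons came from GENCODE M21, in which 181 of 182 members were found. Promoter letters came from RefSeq's table, which holds 81 members. Both fits were tested on simulated data.

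The rule for named genes took all members past the threshold, the 10 of highest level, the 6 largest rises and 6 largest falls with at least 50 reads, members named for a sense gene, 3 on each side of the level limit, their partners, and Kdm6a. Some of these genes are left out of the text, and counts include them. Members and gene lists were chosen with earlier results of these data known. Alternatives were the pseudocount, the filter, the scaling, the variance model, limma voom on recovered reads, a replicate block and leaving out each library. Intervals on read ratios are exact and cover counting error only. Figures were drawn with matplotlib 3.10.9.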

Additional observations from a re-analysis of the deposited data

How the results depend on the processing

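Low read numbers and 2 pools per group limit these results. Of 13 antisense calls, 7 were for genes under 50 reads on average. Counts of calls moved widely over the alternatives, and so did fold changes of called genes with few reads. Log2 fold changes ran from 1.74 to 5.59 for Gm15622 and from 1.51 to 2.55 for Gm17080. They ran from −2.76 to −1.47 for 4930478K11Rik, against 1.11 to 1.41 for Gm11695, the called member of highest level. Counts are given as all genes, members and partners, 564, 13 and 15 in the fit as reported. With no filter on low values they were 0, 0 and 0, with 55 members at an unadjusted p under 0.05 in limma. With a filter at 5 FPKM, 3 of 21 members passed. With a filter at 50 reads, 867 genes and 13 members passed, 6 of the members shared with the fit as reported, and the ratio of antisense to sense passed in 3 pairs instead of 0. Without the mean-variance trend, 280 genes, 9 members and 3 partners passed, and limma voom on recovered reads gave 901, 14 and 23. Leaving out 1 library gave 0 to 234 genes, 0 to 5 members and 0 to 5 partners, with fewer samples in the fit. Other pseudocounts, scalings and robust eBayes gave 11 to 13 members. The cause of the other changes was not tested.

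Replicate numbers did not pair the libraries (r = −0.14 between deviations of same-numbered libraries). A replicate block gave 310 genes, 5 members and 5 partners. Pairing the numbers crosswise, chosen after seeing the data, gave 552, 13 and 14, with 8 members shared. Pairs with the same sign numbered 94 to 101 of 144 over other scalings and libraries left out, 104 of 151 with the partner of highest FPKM, 64 of 98 where exons overlap and 36 of 46 where they do not.

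Directions turned for 10 of the named genes, whose reported log2 fold changes lay between −0.26 and 0.20. Rescaling to listed reads gave log2 fold changes of 0.055 for Gm15726, 0.018 for Chrna1os, 0.019 for Gm43714 and 0.0034 for Mid1, and voom gave 0.069, 0.051 and 0.012 for the first 3. With 1 library left out, Gm15247 ranged from −0.67 to 0.16, Gm15726 from −0.55 to 0.54, Prox1os from −0.083 to 0.48, Zbtb11os1 from −0.52 to 0.10, Frmd8os from −0.60 to 0.22, Chrna1os from −0.37 to 0.32, Gm43714 from −0.18 to 0.13, Igf2r from −0.17 to 0.31, Bhmt from −0.41 to 0.12 and Mid1 from −0.29 to 0.18.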
